A study of Homo sapiens with 12 samples.

Results

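The 10 genes described here encode core and accessory subunits of the Polycomb repressive complexes, namely EZH1, EZH2, EED, SUZ12 and JARID2 of PRC2, and BMI1, PCGF1, PCGF2, RING1 and RNF2 of PRC1. They are 10 of 20046 protein-coding genes of GENCODE v44 and were chosen by name. All accessible bins of 100 bp within each gene body and 10 kb on each side were taken from the bin tables of both cell lines, that is 534 of 709366 bins in DU-145 and 353 of 472994 bins in BT-549. Adjoining bins form accessible regions, 50 of 79177 in DU-145 and 32 of 46298 in BT-549. One region at the edge of the BMI1 window reached past the 10 kb in both lines and was kept whole.

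Both cell lines are established human cancer lines, DU-145 from castration-resistant prostate cancer (CRPC) and BT-549 from triple-negative breast cancer (TNBC). All cells of both lines carried a tetracycline-inducible short hairpin RNA against MUC1 (tet-MUC1shRNA), which doxycycline (DOX) switches on to silence MUC1 and its MUC1-C subunit. The 4 groups were DU-145 and BT-549 cells given either 0.1% DMSO (vehicle) or DOX during 7 days, with 3 replicates per group and 12 ATAC-seq libraries in all. A control hairpin was not analysed here, so that the effect of the hairpin and that of DOX itself cannot be told apart.

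PRC2 places methyl groups on a lysine of histone H3, a mark of repressed chromatin. EZH2 or its less active relative EZH1 is the catalytic subunit, EED binds the mark and stimulates the enzyme, SUZ12 holds the complex together, and JARID2 is an accessory subunit that guides PRC2 to its targets. PRC1 is the partner complex, in which the E3 ligase RING1 or RNF2 (RING1B) pairs with a PCGF protein to ubiquitinate histone H2A. BMI1 (PCGF4) and PCGF2 (MEL18) build canonical PRC1, and PCGF1 builds a variant form with KDM2B. EZH2 and BMI1 are known for their role in stem cell self-renewal and are often abundant in cancer. Accessibility is a property of the DNA of these genes, and their transcripts and proteins were not measured in these libraries.

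In ATAC-seq, the Tn5 transposase cuts open chromatin, and the coverage of a region by fragments is a measure of its accessibility. Levels are given as normalised coverage, the bin value per 1000000 of the library's sum over all bins (CPM), averaged over the bins of a region. In DU-145 the library sums were 12370100 to 24001300 without and 16337400 to 25232000 with DOX. In BT-549 they were 9142900 to 13606100 without and only 2502510 to 3267020 with DOX, so that changes in BT-549 were measured at lower depth. Scaling by the library sum left the median region 0.24 higher on the log2 scale with DOX in DU-145 and -0.10 in BT-549, against 0.05 and 0.00 with TMM factors. All 6 epithelial markers (CDH1, EPCAM, KRT8, KRT18, CLDN7 and ELF3) had an accessible promoter region in DU-145 and only CLDN7 and ELF3 in BT-549, where all 6 mesenchymal markers (VIM, ZEB1, CDH2, FN1, TWIST1 and SPARC) had one. DU-145 also had accessible promoter regions at VIM, ZEB1, FN1 and SPARC. With DOX in DU-145, 4 epithelial promoters rose and 2 fell. The rises of KRT8 and CLDN7 were also called with TMM factors, and those of CDH1 and EPCAM were not (adjusted p = 0.18 and 0.75) and were also lost when single libraries were left out. The summed epithelial level was 10.3 to 10.8 CPM per bin in vehicle, against 10.8 to 12.5 in DOX libraries. The mesenchymal sum was 6.35 to 7.19 and 5.37 to 5.55, with 2 of 4 lower. In BT-549, 2 mesenchymal promoters rose and 2 fell, with sums of 15.4 to 16.9 and 16.0 to 18.2, and neither epithelial promoter passed the test (1.38 to 1.77 and 1.28 to 2.01). The part of these shifts in the results below was not tested. Coverage at the MUC1 promoter (2.53 CPM per bin in vehicle, against 2.25 in DOX in DU-145, 4.21 and 4.28 in BT-549) does not check the silencing, since a short hairpin acts on the transcript.

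The start sites of the members lie mostly in GC-rich sequence, and the promoters of EZH2 and JARID2 are shown because EZH2 is the PRC2 enzyme and JARID2 is the member with the most called regions. Each sequence runs from 250 bases before to 50 after a RefSeq start site (GRCh38.p14) and is read in the direction of the gene. Capitals mark a match on either strand to CCAAT, the GC box GGGCGG, the E2F sequence TTTNGCGC or the CRE sequence TGACGTCA, and neighbouring matches can run together.
EZH2 promoter, minus strand, chr7:148884242-148884541: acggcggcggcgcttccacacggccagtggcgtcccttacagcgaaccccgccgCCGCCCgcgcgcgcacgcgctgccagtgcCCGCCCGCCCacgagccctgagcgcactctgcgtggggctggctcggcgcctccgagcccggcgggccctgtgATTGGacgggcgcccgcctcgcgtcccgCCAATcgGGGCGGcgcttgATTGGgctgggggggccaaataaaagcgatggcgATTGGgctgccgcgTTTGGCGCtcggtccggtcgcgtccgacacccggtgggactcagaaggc
JARID2 promoter at the upstream start, plus strand, chr6:15245819-15246118: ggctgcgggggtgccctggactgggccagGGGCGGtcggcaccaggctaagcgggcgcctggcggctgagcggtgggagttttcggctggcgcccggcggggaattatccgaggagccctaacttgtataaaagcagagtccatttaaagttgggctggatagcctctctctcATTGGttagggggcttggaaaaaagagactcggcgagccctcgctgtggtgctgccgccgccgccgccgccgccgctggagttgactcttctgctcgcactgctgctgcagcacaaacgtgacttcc
JARID2 promoter at the downstream start, plus strand, chr6:15248605-15248904: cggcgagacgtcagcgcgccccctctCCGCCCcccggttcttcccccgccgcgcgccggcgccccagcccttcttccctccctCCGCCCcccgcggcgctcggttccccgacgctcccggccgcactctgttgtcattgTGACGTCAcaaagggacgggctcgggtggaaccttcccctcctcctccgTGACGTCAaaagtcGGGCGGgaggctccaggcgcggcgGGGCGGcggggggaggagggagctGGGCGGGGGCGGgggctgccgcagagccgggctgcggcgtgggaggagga

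The EZH2 promoter held 4 matches to CCAAT, 4 to the GC box and 1 to the E2F sequence, which is present in 2.27% of the 21613 RefSeq promoters of protein-coding genes of this length. CCAAT is present in 34.9% and the GC box in 56.8% of them. The downstream JARID2 promoter held 2 matches to the CRE sequence, which 2.29% of these promoters hold, and 6 to the GC box. RefSeq promoters were found for all 10 members, 13 in all, and none of the 13 held the AP-1 sequence TGANTCA, which 6.17% of all promoters hold. These matches are descriptions of the letters and not of binding.

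All 10 members had an accessible region at their promoter in both lines, that is a region within 1 kb of a start site of a protein-coding transcript. Where a member had several, the one with the most coverage was read. In the peak lists, every DU-145 library had a peak within 1 kb of the canonical start site of all 10 members. In BT-549 vehicle cells 10, 10 and 9 members had one, and in BT-549 DOX cells 8, 10 and 9. The members without a peak in these libraries were SUZ12 and PCGF2, whose peaks were also among the weakest in BT-549 (fold enrichment over background of 8.67 and 7.12 for SUZ12 in vehicle replicates 1 and 2).

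Before any change with DOX, the members differed in how open their promoters were. In DU-145 vehicle cells, JARID2 had the highest level, with a normalised coverage of 7.46 ± 0.305 CPM per bin (mean ± SD, n = 3), above 99.8% of all regions of the line. PCGF1 (4.12 ± 0.146), EZH2 (3.49 ± 0.239), EZH1 (3.41 ± 0.183) and EED (3.23 ± 0.0290) followed, and the ranges of EZH2, EZH1 and EED overlapped. RNF2 (2.30 ± 0.108), BMI1 (1.81 ± 0.213), PCGF2 (1.63 ± 0.145), SUZ12 (1.53 ± 0.121) and RING1 (1.28 ± 0.0738) were lower, and BMI1, PCGF2 and SUZ12 could not be ordered beyond their spread. In BT-549 vehicle cells, JARID2 was again highest (4.49 ± 0.107), followed by RNF2 (3.31 ± 0.295) and EZH2 (3.02 ± 0.297), whose ranges overlapped. PCGF2 (0.897 ± 0.250) and SUZ12 (0.832 ± 0.365) were lowest and also overlapped. Regions differ in width, from 4 to 51 bins, and a wide region averages over its flanks.

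**Figure D1:**
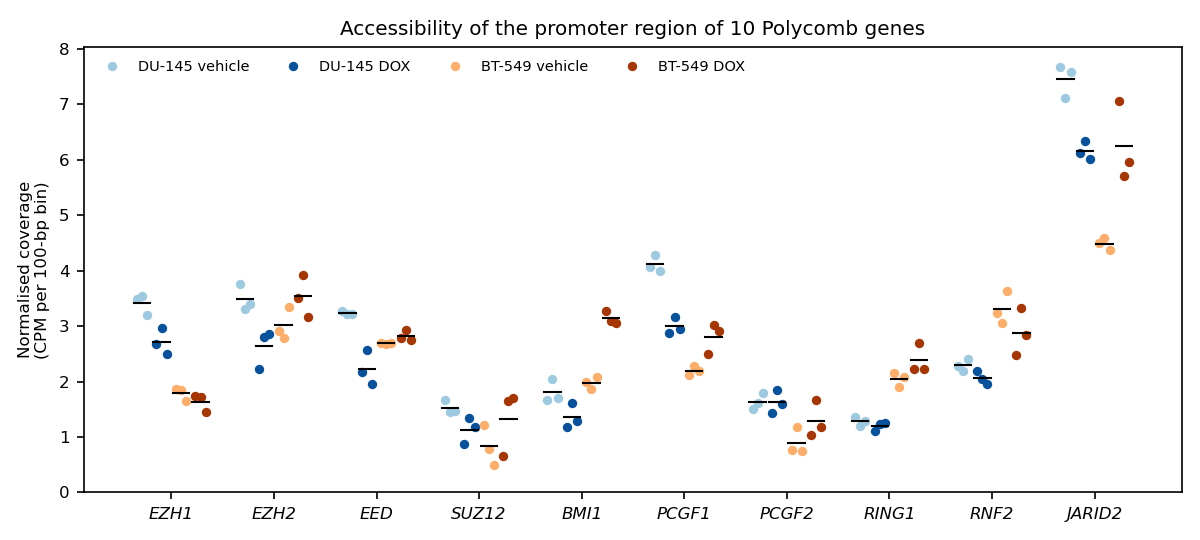
Normalised coverage (CPM per bin, linear axis from 0) of the promoter region of each member in every library, with points for the 3 replicates of each group and black lines for their means. The DU-145 DOX points lie below the DU-145 vehicle points at EZH1, EZH2, EED, SUZ12, BMI1, PCGF1, RNF2 and JARID2. The BT-549 DOX points lie above those of vehicle at EED, BMI1, PCGF1, RING1 and JARID2. Of these, RNF2 in DU-145 and EED, PCGF1 and RING1 in BT-549 were not called. The share of all promoter regions with such separate points is not given here. The regions of a gene can differ in width between the lines.

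With DOX, the promoter regions of 7 of the 10 members lost accessibility in DU-145 cells, and none of the 10 gained it (edgeR quasi-likelihood test, Benjamini-Hochberg adjusted p under 0.05 over all regions). The 7 were the 4 core PRC2 genes EZH1, EZH2, EED and SUZ12, the PRC2 accessory gene JARID2, and BMI1 and PCGF1 of PRC1. Lower coverage was common at promoters in this line, since 35.1% of all 15565 promoter regions were called lower and 11.9% higher. The median log2 difference was -0.37 over the 10 members and -0.14 over all promoter regions. No member promoter was higher at an unadjusted p under 0.05 either, and none was called higher by DESeq2, which called all 10 lower. The share of all promoter regions that DESeq2 called lower is not given here. Relative to the median of all regions of the line, the 10 members lay between -0.77 and -0.24. With TMM factors, 8 of the 10 were called lower, against 55.3% lower and 6.73% higher of all promoter regions. Once the trend of the difference with GC content was removed, 7 were, against 33.4% lower and 12.7% higher.

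The 4 core PRC2 genes fell by 0.33 to 0.53 on the log2 scale at their promoters, and differences among them were not tested. The EED promoter region had 3.27, 3.22 and 3.22 CPM per bin in the 3 vehicle libraries and 2.17, 2.57 and 1.95 in the 3 DOX libraries, a log2 difference of -0.53 ± 0.09 (SE, adjusted p = 6.7e-06). The EZH2 promoter region, which spans the sequence shown above (chr7:148883001-148885300), had 3.76, 3.3 and 3.40 in vehicle, against 2.24, 2.80 and 2.87 in DOX (-0.40 ± 0.09, adjusted p = 0.00022). EZH1, which can take the place of EZH2, had 3.49, 3.55 and 3.21 in vehicle, against 2.68, 2.96 and 2.49 in DOX (-0.33 ± 0.10, adjusted p = 0.0037). At EED, EZH2 and EZH1 every DOX library was below every vehicle library, and the difference was under 1 log2 unit. SUZ12 had 1.67, 1.45 and 1.47 in vehicle, against 0.879, 1.34 and 1.18 in DOX (-0.42 ± 0.14, adjusted p = 0.0094). The SUZ12 call rested on DOX replicate 1, the lowest library, without which the log2 difference was -0.28, adjusted p = 0.085.

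JARID2 had a pair of promoter regions that did not move alike. The upstream region, chr6:15244701-15246300, the most open promoter of the set, had 7.68, 7.11 and 7.59 CPM per bin in vehicle, against 6.12, 6.34 and 6.02 in DOX (log2 difference -0.27 ± 0.07, adjusted p = 0.0014). The downstream region, chr6:15247601-15249500, which holds the start with the CRE matches, had 2.49, 2.46 and 2.10 in vehicle, against 2.79, 2.83 and 2.77 in DOX (0.25 ± 0.09, adjusted p = 0.017). Coverage thus fell at the upstream start and rose at the downstream one by the library sum, with no overlap between groups at either. The rise was not called with TMM factors (0.06, adjusted p = 0.63) or without vehicle replicate 3 (0.18, adjusted p = 0.13).

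Of the PRC1 genes, PCGF1 had 4.07, 4.28 and 4.0 CPM per bin in vehicle, against 2.87, 3.16 and 2.96 in DOX (log2 difference -0.46 ± 0.08, adjusted p = 5.4e-06). BMI1 had 1.66, 2.05 and 1.71 in vehicle, against 1.19, 1.61 and 1.28 in DOX (-0.41 ± 0.12, adjusted p = 0.0034), and its groups were separate by a narrow margin. Without vehicle replicate 2, the highest BMI1 library, the difference was -0.30, adjusted p = 0.063. The remaining PRC1 genes did not pass the test. The ligase gene RNF2 had 2.29, 2.20 and 2.41 in vehicle, against 2.19, 2.04 and 1.95 in DOX (-0.16 ± 0.10, adjusted p = 0.17), and it was called lower with TMM factors (-0.35, adjusted p = 0.0027). The other ligase gene, RING1, had 1.35, 1.21 and 1.29 in vehicle, against 1.11, 1.23 and 1.26 in DOX, with overlapping groups (-0.09 ± 0.13, adjusted p = 0.58). By DESeq2, RNF2 and RING1 were both called lower. PCGF2, whose promoter lies in a region shared with PSMB3, had 1.5, 1.61 and 1.79 in vehicle, against 1.44, 1.85 and 1.60 in DOX. It differed by 0.00 ± 0.09 (adjusted p = 0.98) by the library sum and was called lower by DESeq2 (-0.24, adjusted p = 0.043). The highest bin of this region lies at the PSMB3 promoter and not at that of PCGF2. Over the bins also accessible in BT-549, the PSMB3 stretch had 3.04 ± 0.287 in DU-145 vehicle, against 2.63 ± 0.207 in DOX. The stretch at the PCGF2 promoter had 2.02 ± 0.210 and 2.09 ± 0.353, so that the DESeq2 call cannot be assigned to PCGF2.

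**Figure D2:**
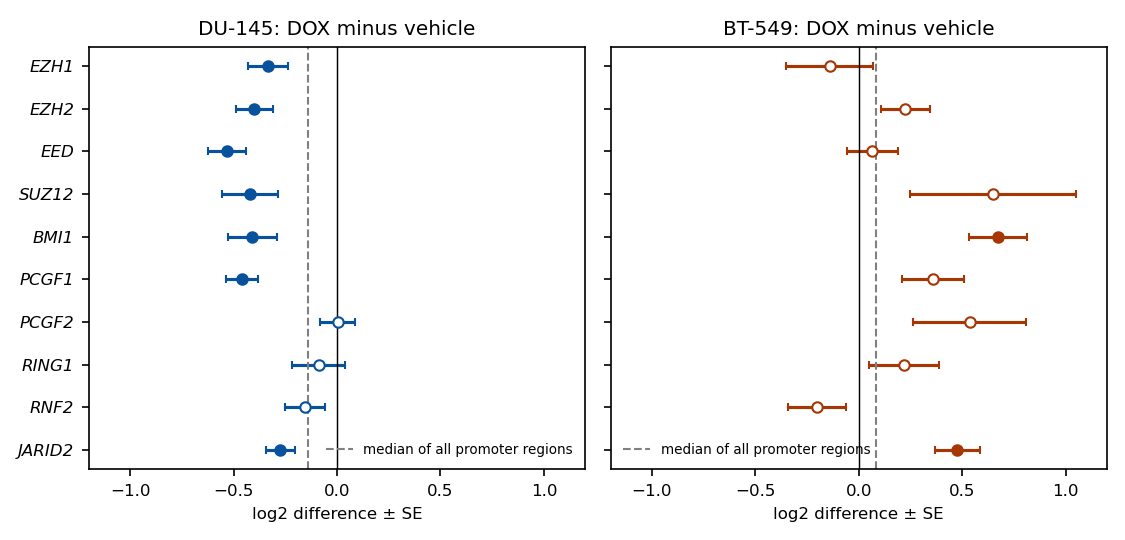
Log2 difference (DOX minus vehicle, ± SE) of the promoter region of each member in DU-145 and BT-549, with filled points for an adjusted p under 0.05 and a dashed line at the median of all promoter regions of the line. In DU-145 the called members lie between -0.53 and -0.27, and in BT-549 the called members BMI1 and JARID2 lie at 0.67 and 0.48.

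The windows also held promoters of neighbouring genes, of which 4 were called in DU-145. COMMD3, a neighbour upstream of BMI1 that can be transcribed together with it, also lost coverage. It had 1.48, 1.75 and 1.58 CPM per bin in vehicle, against 0.827, 1.09 and 1.02 in DOX (log2 difference -0.71 ± 0.13, adjusted p = 1.2e-05). Whether this fall differed from that at the BMI1 start was not tested. A weak region at a LBX2 promoter next to PCGF1 rose from 0.301 ± 0.00864 to 0.465 ± 0.0357 (0.62 ± 0.18, adjusted p = 0.0031). The HSD17B8 promoter next to RING1 rose from 1.12 ± 0.0366 to 1.49 ± 0.159 (0.40 ± 0.12, adjusted p = 0.0048), which was not called with TMM factors (0.21, adjusted p = 0.14) or without DOX replicate 2 (0.31, adjusted p = 0.052). The LRRC37B promoter at the far end of SUZ12 fell by 0.25 ± 0.10 on the log2 scale (adjusted p = 0.024). That call was lost with the GC trend removed and without DOX replicate 1 (-0.20, adjusted p = 0.096), DOX replicate 2 (-0.23, adjusted p = 0.076) or vehicle replicate 2 (-0.21, adjusted p = 0.13). A stronger LBX2 promoter region nearer to PCGF1 had 2.0 ± 0.114 in vehicle, against 1.73 ± 0.0714 in DOX and was not called (-0.20 ± 0.10, adjusted p = 0.094).

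The largest changes at the members were inside JARID2, which is the longest of the 10 genes. Of its 17 regions away from promoters in DU-145, all in introns of the canonical transcript, 10 gained accessibility with DOX, 1 lost it and 6 were not called. Gains were also the most frequent call elsewhere, at 43.2% of all 63612 regions not at a promoter, and 13.1% were called lower. The median log2 difference was 0.99 over the JARID2 introns and 0.41 over all such regions. With the GC trend removed, 7 were called higher and 3 lower, against 29.4% and 23.1% of all such regions. These intronic regions held 40.0 to 52.8% GC, against 53.0 to 71.1% at the member promoters, and the part of GC content in the opposite directions of introns and promoters was not tested beyond that correction.

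The smallest adjusted p was that of a region in intron 1, 83 kb into the gene (chr6:15328901-15329600). It was nearly closed in vehicle cells, with 0.0769, 0.105 and 0.0978 CPM per bin, and had 0.880, 0.707 and 0.865 in DOX cells, a log2 difference of 3.12 ± 0.28 (adjusted p = 2.2e-11). A region 39 kb into the gene, also in intron 1 (chr6:15284801-15285300), had 0.0111, 0.112 and 0.0726 in vehicle, against 0.573, 0.573 and 0.597 in DOX (2.96 ± 0.39, adjusted p = 5.5e-08). In intron 3, 177 kb into the gene, coverage was 0.0570, 0.0215 and 0.0726 in vehicle, against 0.913, 0.520 and 0.430 in DOX (3.69 ± 0.48, adjusted p = 5.1e-08). All of these were without a peak in the 3 DU-145 vehicle libraries and are in the table through the peaks of the 3 DOX libraries, since a region is kept only with a peak in at least 3 replicates of the line. The peaks are therefore no support for the difference. The vehicle values rest on very little coverage, for example summed bin values of 3.16, 2.06 and 3.59 at the intron 3 region, so that the size of the fold is uncertain, although every DOX library lay above every vehicle library. All 3 calls were kept with each library left out, with TMM factors, by DESeq2 and with the GC trend removed (log2 differences with the GC trend removed of 2.57, 2.38 and 3.24).

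The sequence around the highest bin of the region 83 kb into JARID2 is shown because it opened from near closure with the smallest adjusted p (GRCh38, plus strand). It is all in lower case, since none of the sequences searched for was found in it.
JARID2 intron 1, 83 kb, chr6:15329101-15329400: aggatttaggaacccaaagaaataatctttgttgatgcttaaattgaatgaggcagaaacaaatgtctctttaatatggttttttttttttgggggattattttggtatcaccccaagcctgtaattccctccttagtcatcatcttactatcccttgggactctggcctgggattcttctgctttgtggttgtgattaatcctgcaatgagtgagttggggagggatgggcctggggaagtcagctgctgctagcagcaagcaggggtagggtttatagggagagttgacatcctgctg

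The region at 83 kb held no match to the AP-1 sequence TGANTCA. Of the 10 JARID2 intronic regions that opened, 5 held the AP-1 sequence in the 300 bp around their highest bin. So did 9 of all 17 JARID2 intronic regions, 44% of all DU-145 regions not at a promoter and 58.2% of those called higher.

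The other 7 JARID2 regions that rose had smaller or similar changes, between 0.87 and 2.17 on the log2 scale, and lay between 16 and 236 kb from the start site. The weakest of them, 197 kb into the gene, was not called with the GC trend removed (0.29, adjusted p = 0.38), by DESeq2 (0.62, adjusted p = 0.092) or without vehicle replicate 2 (0.67, adjusted p = 0.06). The regions at 95 kb and 236 kb were not called with the GC trend removed either (0.65, adjusted p = 0.097 and 0.43, adjusted p = 0.14). The 1 region that closed, named after its values were seen, lay at 48 kb (chr6:15293601-15294000), between regions that opened. It had 0.556, 0.563 and 0.395 CPM per bin in vehicle, against 0.0507, 0.0617 and 0.235 in DOX (-2.14 ± 0.42, adjusted p = 5.7e-05), and it is in the table through the peaks of the 3 vehicle libraries only. Without DOX replicate 3 its log2 difference was -3.21. The most open intronic region, 186 kb into the gene, had 2.01 ± 0.0696 in vehicle, against 2.12 ± 0.113 in DOX (0.08 ± 0.10, adjusted p = 0.56), and it was called lower with the GC trend removed (-0.45, adjusted p = 0.00046). Regions that rose, that fell and that did not pass the test therefore lay side by side in JARID2.

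**Figure D3:**
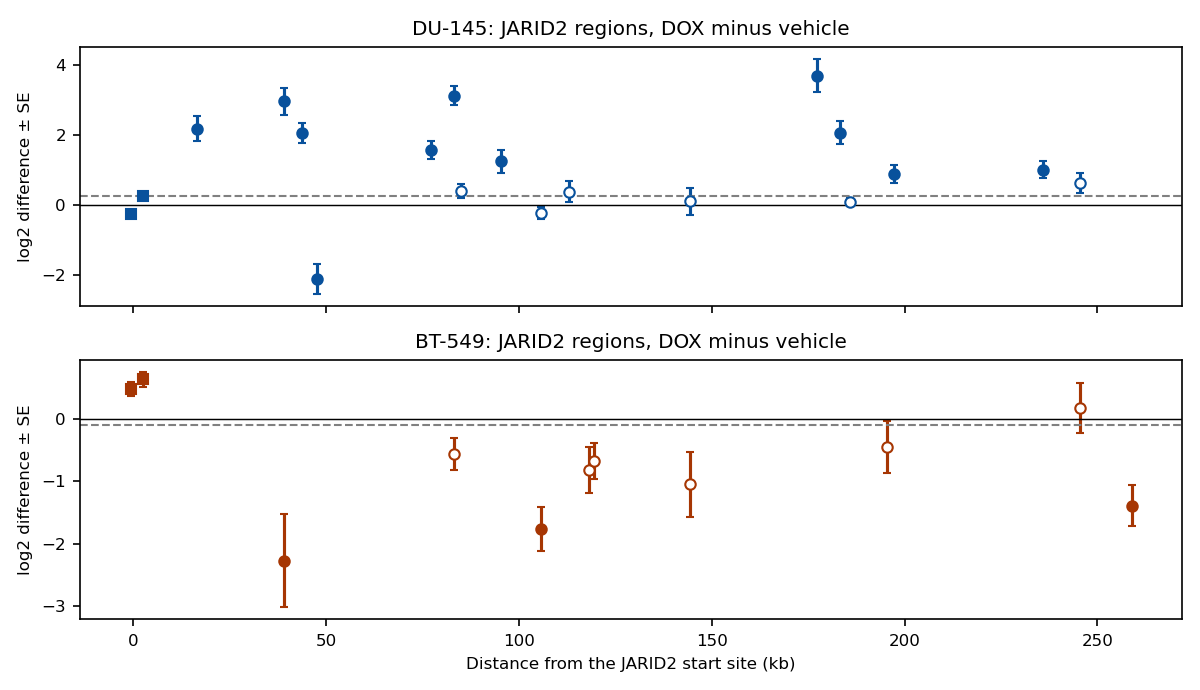
Log2 difference (DOX minus vehicle, ± SE) of each accessible region of JARID2 by its distance from the start site in kb, in DU-145 and BT-549. Squares are promoter regions and circles intronic ones, filled symbols have an adjusted p under 0.05, and the dashed lines are the medians of all regions of the line (0.24 and -0.10); most DU-145 introns lie above 0 and most BT-549 introns below it.

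Away from promoters, the other 9 genes had 13 regions in DU-145, of which 3 were called, all higher. Of all regions not at a promoter in this line, 43.2% were called higher and 13.1% lower. A region 14 kb upstream of the canonical EED start, within the longer gene model, had 0.346, 0.0468 and 0.326 CPM per bin in vehicle, against 0.738, 0.779 and 0.796 in DOX (log2 difference 1.88 ± 0.38, adjusted p = 7.2e-05), and vehicle replicate 2 was far below the other vehicle libraries. Without that library the difference was 1.21. In intron 1 of RNF2, a region 29 kb from the start site had 0.133, 0.222 and 0.182 in vehicle, against 0.464, 0.508 and 0.660 in DOX (1.57 ± 0.31, adjusted p = 6e-05). A second RNF2 region, at 24 kb, had 0.368, 0.241 and 0.213 in vehicle, against 0.385, 0.590 and 0.421 in DOX (0.80 ± 0.33, adjusted p = 0.038), with groups that all but touched. It was not called with TMM factors, by DESeq2, with the GC trend removed or without vehicle replicate 2 (0.69, adjusted p = 0.14), vehicle replicate 3 (0.71, adjusted p = 0.092), DOX replicate 2 (0.58, adjusted p = 0.22) or DOX replicate 3 (0.87, adjusted p = 0.054). Regions downstream of RNF2 and BMI1 were called without vehicle replicate 2 (2.27, adjusted p = 0.0014) and without DOX replicate 2 (-0.38, adjusted p = 0.043), respectively. Over all 50 regions, 16 were called higher and 10 lower by the library sum, but 13 and 15 with TMM factors and 11 and 17 by DESeq2, and over the whole line 37.1% were called higher and 17.4% lower (30% and 25.5% with TMM factors).

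In BT-549 cells, the member promoters that were called rose with DOX. The promoter regions of 2 of the 10 members, BMI1 and JARID2, gained accessibility with DOX, against 17.2% of all 14353 promoter regions called higher and 7.73% lower. The count of gains was thus near the share of all promoter regions. No member promoter was called lower, at an adjusted or an unadjusted p under 0.05 or by DESeq2. The median log2 difference was 0.29 over the members and 0.08 over all promoter regions. With TMM factors 4 of the 10 were called higher, against 24.6% higher and 4.81% lower of all promoter regions, and with the GC trend removed 1, against 12.2% and 9.37%. BMI1 had 1.98, 1.86 and 2.09 CPM per bin in vehicle, against 3.28, 3.09 and 3.06 in DOX (log2 difference 0.67 ± 0.14, adjusted p = 0.00051). A second BMI1 region near an internal start, 4551 bp downstream, had 1.32, 1.83 and 1.85 in vehicle, against 2.68, 2.79 and 2.76 in DOX (0.73 ± 0.19, adjusted p = 0.0044), or 0.58, adjusted p = 0.058 without vehicle replicate 1. Both BMI1 regions were higher in every DOX library than in any vehicle library.

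JARID2 gained coverage at both of its promoters in BT-549. The upstream region had 4.50, 4.59 and 4.38 CPM per bin in vehicle, against 7.06, 5.70 and 5.97 in DOX (log2 difference 0.48 ± 0.11, adjusted p = 0.0014). The downstream region had 2.63, 2.55 and 2.53 in vehicle, against 4.05, 4.52 and 3.43 in DOX (0.63 ± 0.12, adjusted p = 0.00021). The groups did not overlap at either, and the upstream call was lost with the GC trend removed (0.28, adjusted p = 0.055). EZH2 had 2.91, 2.79 and 3.35 in vehicle, against 3.51, 3.93 and 3.17 in DOX (0.23 ± 0.12, adjusted p = 0.16), with overlapping groups. PCGF1 had 2.12, 2.28 and 2.19 in vehicle, against 2.50, 3.01 and 2.92 in DOX (0.36 ± 0.15, adjusted p = 0.07), with groups that did not overlap, and it was called higher without DOX replicate 1 (0.43, adjusted p = 0.041). With all libraries neither passed the test by the library sum, and both did with TMM factors (adjusted p = 0.041 and 0.022). EED (0.07 ± 0.12), EZH1 (-0.14 ± 0.21), RING1 (0.22 ± 0.17) and RNF2 (-0.20 ± 0.14) were not called either, with adjusted p-values of 0.29 to 0.72. SUZ12 (0.65 ± 0.40) and PCGF2 (0.54 ± 0.27), read at another promoter region than in DU-145, had differences of similar size to BMI1 but wide errors, and their groups overlapped. At the RXRB and SLC39A7 promoters in the RING1 window, coverage rose from 2.41 ± 0.300 to 3.23 ± 0.339 (0.42 ± 0.14, adjusted p = 0.023), a call lost with the GC trend removed and without vehicle replicate 1 (0.36, adjusted p = 0.14), vehicle replicate 3 (0.39, adjusted p = 0.084), DOX replicate 2 (0.37, adjusted p = 0.065) or DOX replicate 3 (0.39, adjusted p = 0.077).

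Inside JARID2, accessibility fell in BT-549 where it was called. Of 9 intronic regions, 3 were called lower and 0 higher (also 0 higher at an unadjusted p under 0.05 and 0 by DESeq2), against 22.6% lower and 9.93% higher of all 31945 regions not at a promoter. With the GC trend removed 2 were called lower, against 13.2% lower and 13.6% higher. The clearest was 106 kb into the gene in intron 1 (chr6:15351501-15352100), with 1.42, 1.41 and 1.46 CPM per bin in vehicle, against 0.335, 0.446 and 0.445 in DOX (log2 difference -1.76 ± 0.36, adjusted p = 0.00045). In intron 9, 259 kb into the gene (chr6:15504701-15505400), coverage was 1.48, 1.46 and 1.23 in vehicle, against 0.550, 0.691 and 0.402 in DOX (-1.39 ± 0.33, adjusted p = 0.002). Both regions are in the table through the peaks of the 3 BT-549 vehicle libraries, with none in the shallower DOX libraries, so that the peaks are no support for the difference. The region at 39 kb had 0.782, 0.757 and 0.845 in vehicle, against 0.0465, 0.583 and 0 in DOX (-2.27 ± 0.75, adjusted p = 0.022), with 1 DOX library at 0 and 1 close to the vehicle level. Leaving out a library ended this call in 5 of 6 cases (adjusted p = 0.059 to 0.12), all but DOX replicate 2, without which the fitted difference was -7.27 and its size is uncertain. The region at 83 kb had 2.26, 1.89 and 1.86 in vehicle, against 1.04, 1.98 and 1.07 in DOX (-0.56 ± 0.26, adjusted p = 0.1), and without DOX replicate 2, the library at the vehicle level, it was called lower (-0.91, adjusted p = 0.011). Neighbouring intron 1 regions were called lower without DOX replicate 1, at 118231 bp (-1.11, adjusted p = 0.049), and without DOX replicate 3, at 119381 bp (-0.92, adjusted p = 0.048). Over all 32 regions, 5 were called higher and 3 lower, whereas over the whole line 12.2% were called higher and 18% lower (15.9% and 14.8% with TMM factors).

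The sum of all accessible bins in a gene's window gives 1 value per gene. It includes promoters of neighbouring genes and is therefore not a measure of the gene alone. In BT-549, 13 of the 17 bins of the SUZ12 window belong to the LRRC37B promoter region. In DU-145, 6 of the 10 windows fell with DOX, EZH1, EZH2, EED, SUZ12, BMI1 and PCGF1, with log2 differences of -0.39 to -0.31, against 31% of 17651 windows called lower and 20% higher. With flanks of 2 kb the PCGF2 window was called higher (0.29, adjusted p = 0.023), against 0.02 with 10 kb. The EZH2 window went from 82.9 ± 5.74 to 62.9 ± 8.23 CPM (mean ± SD, n = 3). The JARID2 window, which sums a lower upstream promoter and mostly higher introns, went from 218 ± 5.02 to 233 ± 0.864 CPM (log2 difference 0.09 ± 0.05, adjusted p = 0.15, and 0.022 with TMM factors). In BT-549, the windows of BMI1 (128 ± 7.52 to 173 ± 9.55 CPM, 0.43 ± 0.09, adjusted p = 0.00039) and JARID2 (193 ± 6.15 to 226 ± 17.1 CPM, 0.22 ± 0.08, adjusted p = 0.038) rose, against 18.1% of 16304 windows called higher and 13% lower. That count was near the share of all windows. With flanks of 2 kb the BMI1 difference was 0.69. The JARID2 call did not hold with TMM factors (0.18, adjusted p = 0.095) or when any library other than DOX replicate 3 was left out (adjusted p = 0.064 to 0.12).

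The lines were compared in vehicle over the 28 stretches of the members' windows that are accessible in both tables, out of 32671 shared regions. These use the same vehicle libraries as the DOX comparisons and are not independent of them. Of the 50 DU-145 regions, 26 overlap a BT-549 region, and of the 32 BT-549 regions, 28 overlap a DU-145 region. Each library was scaled by the sum of its own table, and the median shared region was -0.47 on the log2 scale (DU-145 minus BT-549), or -0.05 with TMM factors. Of all shared regions, 22.3% were called higher and 52.1% lower in DU-145 by the library sum, and 35% and 35.1% with TMM factors. Only calls made in the same direction with both scalings are therefore given as differences. By that count, 5 of the 10 promoter regions were more open in DU-145 and none was more open in BT-549. Of all 13069 shared promoter regions, 30.5% were called higher and 41.3% lower in DU-145 by the library sum, and 50.3% and 22% with TMM factors.

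The 5 promoters more open in DU-145 were those of SUZ12, PCGF1, EZH1, PCGF2 and JARID2. At SUZ12, the shared 4 bins had 3.14, 2.70 and 2.81 CPM per bin in DU-145 and 1.22, 0.784 and 0.493 in BT-549 vehicle cells (log2 difference 1.74 ± 0.24, adjusted p = 3.1e-08). PCGF1 had 5.07, 5.20 and 4.96 in DU-145 and 2.12, 2.28 and 2.19 in BT-549 (1.21 ± 0.10, adjusted p = 5.1e-14). EZH1 had 4.10, 4.19 and 3.79 and 1.87, 1.85 and 1.66 (1.17 ± 0.13, adjusted p = 1.5e-10). PCGF2 (1.17 ± 0.18) and the upstream JARID2 promoter (0.66 ± 0.08) were higher in DU-145 in every library as well. With TMM factors these 5 differences were larger, at 2.15, 1.62, 1.58, 1.58 and 1.08. The call at the other promoters depended on the scaling. EZH2 (0.21 ± 0.10) and EED (0.21 ± 0.10) were not called by the library sum and were higher in DU-145 with TMM factors (0.63 and 0.62). EZH2 was also called without BT-549 vehicle replicate 3 (0.29, adjusted p = 0.017) or any of 4 DOX libraries, and EED without DU-145 DOX replicate 2 (0.21, adjusted p = 0.05). BMI1 (-0.12 ± 0.13) changed its sign to 0.29, and RNF2 (-0.53 ± 0.11) and RING1 (-0.68 ± 0.14) were lower by the library sum and not called with TMM factors (-0.11 and -0.26).

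At the JARID2 regions 83 kb and 39 kb from the start site, the lines differed in the other direction than at its upstream promoter. The downstream JARID2 promoter was called lower in DU-145 by the library sum (-0.25 ± 0.10, adjusted p = 0.029). It was not called with TMM factors (0.17, adjusted p = 0.14). Regions not at a promoter were called lower in DU-145 at 59.3% and higher at 16.8% of all 19602 shared ones. The region at 83 kb had 2.44, 2.04 and 1.92 CPM per bin in BT-549 and 0.0769, 0.105 and 0.0978 in DU-145 vehicle cells, a log2 difference of -4.50 ± 0.28 (adjusted p = 4.1e-18). The region at 39 kb had 0.782, 0.757 and 0.845 in BT-549 and 0.0185, 0.164 and 0.115 in DU-145 (-2.81 ± 0.45, adjusted p = 5.7e-07). Both regions were open in BT-549 and nearly closed in DU-145. They were kept in DU-145 through peaks of its DOX libraries only, a selection that favours a low vehicle level there. With the GC trend removed the differences were -3.61 and -1.67. With DOX, the DU-145 level rose to 0.818 ± 0.0958 at 83 kb and 0.750 ± 0.0433 at 39 kb, against 2.13 ± 0.270 and 0.795 ± 0.0454 in BT-549 vehicle cells. The region at 106 kb was open in both lines (1.32 ± 0.170 in DU-145 and 1.43 ± 0.0304 in BT-549, adjusted p = 0.58), and with the GC trend removed it was called higher in DU-145 (0.81, adjusted p = 0.00033). The BMI1 region near the internal start was less open in DU-145 (0.793 ± 0.137 against 1.67 ± 0.301, -1.08 ± 0.19, adjusted p = 4.6e-06, and -0.67 with TMM factors).

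**Figure D4:**
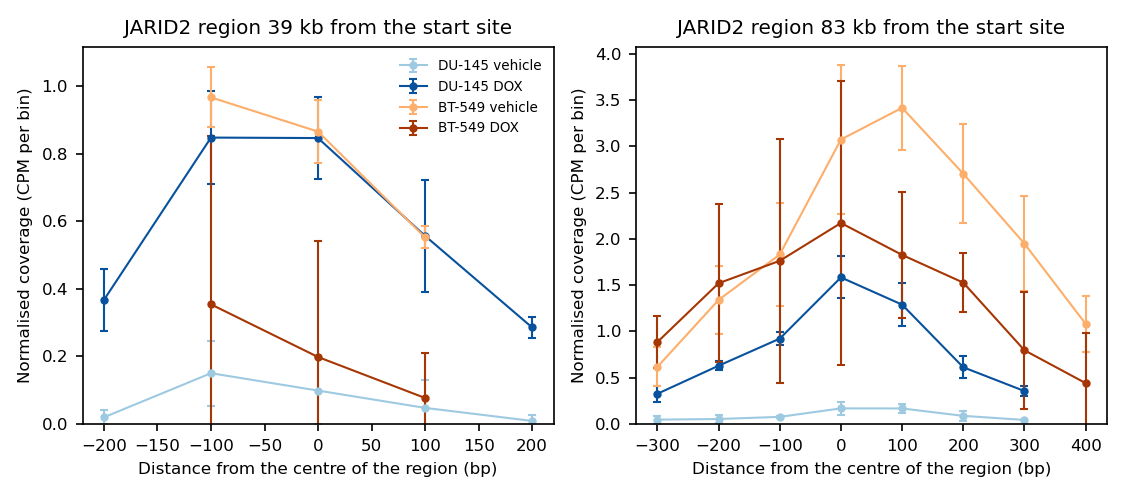
Mean normalised coverage (CPM per bin, ± SD of 3 replicates) across the JARID2 regions 39 kb and 83 kb from the start site, by distance from the centre in bp, for the 4 groups and the bins present in each table. DU-145 vehicle cells are near 0 at both, DU-145 DOX cells reach 0.750 and 0.818 on average over the shared bins, and BT-549 vehicle cells 0.795 and 2.13.

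The interaction of line and DOX over all 12 libraries tests whether the effect of DOX differed between DU-145 and BT-549. The DOX effect was more negative in DU-145 at 6 of the 10 promoter regions, BMI1, PCGF1, JARID2, EZH2, EED and SUZ12, and more positive at none of them, with 33.4% of all shared promoter regions called in the first direction and 5.97% in the second. None of the 10 was more positive with DESeq2 or at an unadjusted p under 0.05. At BMI1, coverage over the shared bins fell from 1.81 ± 0.213 to 1.36 ± 0.224 CPM per bin in DU-145 and rose from 1.98 ± 0.113 to 3.15 ± 0.118 in BT-549, a difference of log2 effects of -1.08 ± 0.19 (adjusted p = 1.1e-05). The corresponding difference was -0.80 ± 0.16 at PCGF1 (adjusted p = 5.8e-05), -0.74 ± 0.12 at the upstream JARID2 promoter (adjusted p = 7.1e-06), -0.62 ± 0.15 at EZH2 (adjusted p = 0.00076) and -0.60 ± 0.15 at EED (adjusted p = 0.0014). The EZH2 difference was not called with the GC trend removed (-0.35, adjusted p = 0.062). At SUZ12, where only 4 bins are shared, it was -1.16 ± 0.40 (adjusted p = 0.02), a call lost with the GC trend removed (adjusted p = 0.081) and without BT-549 vehicle replicate 3 (-0.93, adjusted p = 0.065), DOX replicate 2 (-1.03, adjusted p = 0.064) or DOX replicate 3 (-0.91, adjusted p = 0.13). EZH1 (-0.20 ± 0.21), PCGF2 (-0.47 ± 0.28), RING1 (-0.31 ± 0.21) and RNF2 (0.04 ± 0.17) were not called, although PCGF2 was without BT-549 vehicle replicate 2 (-0.73, adjusted p = 0.044).

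In the JARID2 introns the difference had the opposite sign. It was 5.01 ± 0.79 at 39 kb (adjusted p = 2.3e-06), 3.64 ± 0.38 at 83 kb (adjusted p = 6.1e-10) and 1.5 ± 0.39 at 106 kb (adjusted p = 0.0018). The value at 39 kb rests on BT-549 DOX libraries that did not agree, 1 of them at 0, and without BT-549 DOX replicate 2 it was 10.8. The first regions gained coverage in DU-145, whereas at 106 kb the DU-145 level went from 1.32 ± 0.170 to 1.09 ± 0.122 and the BT-549 level from 1.43 ± 0.0304 to 0.409 ± 0.0635. The difference at 106 kb was not called with the GC trend removed (0.75, adjusted p = 0.15), and the others were (4.09 at 39 kb and 2.93 at 83 kb). The regions at 39 and 83 kb were kept in DU-145 through its DOX peaks only. The region at 106 kb was kept in BT-549 through its vehicle peaks only. Each of these selections favours a positive difference. Of all 19602 shared regions not at a promoter, 32.6% were called more positive in DU-145 and 7.36% more negative. Over all 28 shared regions of the members, 3 were called more positive and 11 more negative, against 22% and 17.8% of all shared regions.

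**Figure D5:**
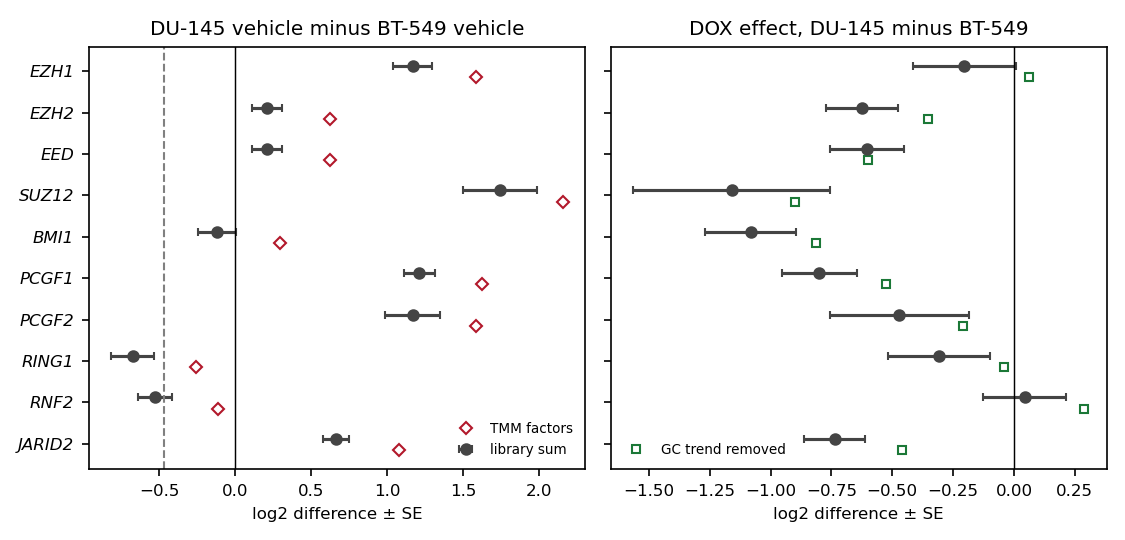
Left, log2 difference in promoter coverage between DU-145 and BT-549 vehicle cells for the 10 members, scaled by the library sum (circles, ± SE) or with TMM factors (diamonds), with a dashed line at the median of all shared regions (-0.47). Right, the difference of the DOX effect between the lines (circles, ± SE) and its value with the GC trend removed (squares); EZH2, EED, SUZ12, BMI1, PCGF1 and JARID2 lie below 0 in both.

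The other genes of the Polycomb system were read the same way at their promoter regions, from a list of 32 accessory subunits, partners and opponents of the complexes. All 32 had a promoter region in both lines. In DU-145, 14 fell with DOX, 4 rose and 14 were not called, with a median log2 difference of -0.19. Of all promoter regions of the line, 35.1% were called lower and 11.9% higher, with a median of -0.14. Among the 6 genes with the smallest adjusted p-values, those that fell were PHF19, a PRC2 accessory subunit (-0.49 ± 0.08), PHC3, a PRC1 subunit (-0.67 ± 0.11), RBBP4, the histone-binding subunit of PRC2 (-0.51 ± 0.08), and BCORL1, a relative of the variant PRC1 subunit BCOR (-0.66 ± 0.12). The 2 that rose were KDM2B and EPOP. KDM2B, which recruits PCGF1-containing PRC1 to CpG islands, rose from 0.689 ± 0.0126 to 1.16 ± 0.192 CPM per bin (0.75 ± 0.12, adjusted p = 3.7e-06), and EPOP, another PRC2 accessory subunit, rose by 0.57 ± 0.10. Both of these rises were also called with TMM factors. In BT-549, 13 of the 32 rose, 1 fell and 18 were not called, with a median of 0.30. Of all promoter regions there, 17.2% were called higher and 7.73% lower, with a median of 0.08. Among those that rose were PHF1 (0.90 ± 0.11) and PHF19, read at another promoter region than in DU-145 (0.73 ± 0.10), KDM6B, a demethylase of the mark that PRC2 places (0.65 ± 0.09), ASXL1, a partner of the H2A deubiquitinase BAP1 (0.62 ± 0.09), CBX8, a chromodomain subunit of PRC1 (1.06 ± 0.18), and KDM6A, another demethylase of that mark (0.74 ± 0.16), with adjusted p-values of 6e-07 to 0.00071. The 1 that fell was PHC1 (-0.49 ± 0.17), a call lost with TMM factors. With the GC trend removed, 12 were called lower and 4 higher in DU-145, against 33.4% and 12.7% of all promoter regions. In BT-549, 3 were called lower and 11 higher with that correction, against 9.37% and 12.2% of all promoter regions.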

How the data were processed

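ATAC-seq libraries were made in 3 biologically independent replicates per group, for DU-145 and BT-549 cells with vehicle or DOX. The authors aligned reads to GRCh38 with BWA, removed duplicates with Picard and called peaks in each replicate with MACS2 (version 2.2.7.1 per the submitters' processing notes) at a q-value cutoff of 0.05. Regions found in at least 3 replicates of a line were split by the authors into bins of 100 bp. Per the file headers and methods, the deposited tables give estimated counts for each bin, as the mean fragment coverage of each bin with no scaling for depth, and are not whole numbers. A fragment longer than a bin counts in several bins, so that summed values are not independent fragments, and p-values rest on the spread between replicates. The deposited peak lists hold the fold enrichment of each summit over background and its −log10 q-value. The fold enrichment was used as the authors gave it, and the q-value for a stricter cutoff of 0.01.

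Adjoining bins were summed to regions, and all bins of a gene body with 10 kb on each side to windows, with gene models of GENCODE v44. Values were rounded and tested with edgeR 4.0.16 (quasi-likelihood, R 4.3.3), with library sums as sizes and without TMM factors, for features with a total of at least 10. The lines and the interaction of line and DOX were tested on the bins present in both tables, in 1 fit of all 12 libraries. P-values were adjusted by the Benjamini-Hochberg method over all features of a comparison, and a feature was called at an adjusted p under 0.05. SE is the log2 difference divided by the square root of F. DESeq2 1.42.0, TMM and RLE factors, other filters, the highest bin of a region, flanks of 2 kb, a correction over 20 strata of GC content, a replicate block and leaving out each library were run as alternatives. The edgeR step was also tested on simulated counts, and the GC correction was not part of that test. The promoter region of a gene is the one with the most coverage within 1 kb of a protein-coding start site. Of the other called regions, up to 3 per member and line were named by smallest adjusted p. The JARID2 regions at 48, 95, 186, 197 and 236 kb in DU-145 and at 39 and 83 kb in BT-549 were named after their values were seen. Members, gene lists and tests were chosen with earlier results of these data known. Promoter sequences come from RefSeq (GRCh38.p14), and those of regions from the GRCh38 genome.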

Additional observations from a re-analysis of the deposited data

Results flagged for a closer look

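The effect of DOX differed between DU-145 and BT-549 at 14 shared regions of the members, by the edgeR test of the interaction of line and DOX over 12 libraries. Each value is the log2 effect in DU-145 minus that in BT-549.

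At the members' own promoters, the difference was -0.62 (adjusted p = 0.00076) for EZH2, -0.60 (adjusted p = 0.0014) for EED, -1.16 (adjusted p = 0.02) for SUZ12, -1.08 (adjusted p = 1.1e-05) for BMI1, -0.80 (adjusted p = 5.8e-05) for PCGF1 and -0.74 (adjusted p = 7.1e-06) for JARID2. It was -0.88 (adjusted p = 0.011) at the BMI1 region near its internal start and -0.40 (adjusted p = 0.028) at the downstream JARID2 promoter. The BMI1 region was not called without DU-145 DOX replicate 1 (-0.66, adjusted p = 0.052) or with the GC trend removed (-0.62, adjusted p = 0.087), and the downstream JARID2 promoter not without BT-549 DOX replicate 2, DU-145 DOX replicate 3, DU-145 vehicle replicate 1 or DU-145 vehicle replicate 2 (adjusted p = 0.056 to 0.11) or with the GC trend removed (adjusted p = 0.55).

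At promoters of neighbouring genes, the difference was -0.92 (adjusted p = 0.00012) at COMMD3 beside BMI1, -0.50 (adjusted p = 0.025) at PSMB3 beside PCGF2 and -0.66 (adjusted p = 0.0028) at RXRB and SLC39A7 beside RING1. The last 2 were not called with the GC trend removed (adjusted p = 0.07 and 0.093), and the PSMB3 promoter not without BT-549 vehicle or DOX replicate 3, DU-145 DOX replicate 1 or 3, or DU-145 vehicle replicate 3 (adjusted p = 0.052 to 0.077).

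In the introns of JARID2, the difference was 5.01 (adjusted p = 2.3e-06) at 39 kb, 3.64 (adjusted p = 6.1e-10) at 83 kb and 1.5 (adjusted p = 0.0018) at 106 kb from the start site. The value at 39 kb was 10.8 without BT-549 DOX replicate 2, so that its size is uncertain. The peaks through which these regions were kept favour a positive difference, as described above.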

How the results depend on the processing

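Of 158 values of the members, 78 were called, and 50 of these kept their direction and their call under every alternative run. The 26 DU-145 regions called ranged from 23 to 29 over all alternatives. The 8 BT-549 regions called became 5 with the GC trend removed and 5 to 9 when a library was left out, the fewest without vehicle replicate 1. The 2 BT-549 windows called became 1 by DESeq2 and 1 with TMM factors, and 1 to 2 when a library was left out. The 14 differences of DOX effects became 8 with the GC trend removed. Counting only peaks with a summit within 1 kb, the mean number of members with a promoter peak was 9.67 without and 9.33 with DOX in DU-145 and 9.0 in BT-549 vehicle libraries. The cause of these shifts was not tested.

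These values changed sign, with a call on 1 side at least. The DU-145 region shared by PCGF2 and PSMB3 was -0.24 by DESeq2 and with RLE factors. It was -0.26 by its highest bin, which lies at the PSMB3 promoter. With the GC trend removed, the region 51 kb upstream of EED was -0.60 and JARID2 at 186 kb was -0.45 in DU-145, and the lines differed by 0.90 at the EED region and 0.81 at JARID2 at 106 kb. The lines differed by 0.29 at BMI1 and 0.17 at the downstream JARID2 promoter, each by DESeq2 and with TMM factors. Another 112 sign changes were between values that were not called.

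Same-numbered vehicle and DOX replicates did not deviate together (correlations of -0.019 to 0.021 in DU-145 and 0.0030 to 0.059 in BT-549, and not every library correlated best with its own number). With the number as a replicate block, 42588 regions were called in DU-145, 12556 in BT-549, 9736 and 5417 gene windows, 24196 line differences and 12973 differences of DOX effects, against 43168, 13971, 9000, 5077, 24294 and 12989 without it. For the members these were 26, 8, 6, 2, 23 and 14.

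Depth limits BT-549, whose DOX libraries have the lowest sums. Regions found in fewer than 3 replicates are not in the tables, and bins of 1 table only allow no comparison of the lines.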
